A study of Mus musculus with 6 samples.

Results

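The genes described here are 10 genes of the TGF-beta pathway: the ligand genes Tgfb1 and Tgfb2, the receptor genes Tgfbr1 and Tgfbr2, the intracellular genes Smad3, Smad7 and Skil, and Tgfbi, Thbs1 and Ltbp1, whose products are secreted. They were taken by symbol, as every probe set whose platform annotation gives exactly 1 gene symbol and that symbol is one of the 10. This gave 28 probe sets for 10 of 18193 annotated genes. A further probe set that the annotation assigns to both Thbs1 and another gene was left out. The study profiled 6 cultures of primary mouse microglia, each on its own single-colour array. The titles of 4 samples, 2 in each group, carry a pair of numbers whose meaning is not given, so pooling cannot be told from the labels. Of these, 3 cultures were Dap12-deficient (labelled Dap12-ko) and 3 were wild-type (labelled wt). No treatment, strain, age or sex is given for either group, and whether the cultures derive from separate animals is not stated, which limits every p-value here to the spread among these 6 cultures. Dap12, encoded by Tyrobp, is an adaptor through which receptors such as Trem2 signal in microglia, the resident macrophages of the brain.

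TGF-beta is secreted in a latent form, in which its propeptide shields the active dimer, and latent TGF-beta binding proteins anchor this complex in the matrix. Integrins, proteases and thrombospondin 1 can release the active ligand, which then brings together the type II and type I receptor kinases. The type I receptor phosphorylates Smad2 and Smad3, which enter the nucleus with Smad4, and targets such as Smad7 and Skil feed back to dampen the signal. In the brain, TGF-beta signalling is needed for the mature microglial expression programme, which includes genes such as P2ry12, Tmem119 and Sall1.

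Tyrobp, the targeted gene, separated the groups. Wild-type arrays 1, 2 and 3 read 5584, 7271 and 5396, the Dap12-deficient arrays 125, 96.4 and 96.2 (log2 difference -5.64, SE 0.20, limma adjusted p = 8.14e-07). All signals are linear, and their trimmed mean was the same on every array. The median signal ran from 11.9 to 14.0 on wild-type and from 14.6 to 16.5 on Dap12-deficient arrays. Log2 differences below are Dap12-deficient minus wild-type on the scale log2(signal + 16), which understates the differences of dim probe sets. All 5 annotated microglial marker genes were bright enough to be tested. Their summed signal was 9277 to 13388 in wild-type and 7923 to 12103 in Dap12-deficient cultures. The receptor gene Csf1r made up most of it on every array (5439 to 9522), while the integrin gene Itgam read 86.7 to 185. Markers of other brain cells were present too. The summed signal of 5 oligodendrocyte markers was 4263 to 6457 in wild-type and 419.6 to 5186 in Dap12-deficient cultures, that of 6 astrocyte markers 338 to 543 and 336 to 1282, and that of 6 fibroblast and meningeal markers 69.9 to 108 and 97.4 to 170.3. The myelin gene Mbp (358 to 5535) made up most of the oligodendrocyte sum on every array. Y-linked genes were lower on all 3 Dap12-deficient arrays, where Eif2s3y, Kdm5d and Uty averaged 5.31 to 6.19 on the scale log2(signal + 16) against 7.10 to 7.36 in wild-type. In bulk cultures, fewer cells of a type and less RNA per cell cannot be told apart.

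None of the 10 genes passed the threshold of a limma adjusted p under 0.05. Of their 28 probe sets, 22 were bright enough to be tested (a mean signal of at least 8.51 over 6 arrays), and these came from 9 genes, all but Ltbp1. The lowest adjusted p among them was 0.293. Over all 27022 probe sets tested, 2 passed, or 0.0074%. Thbs1 stood farthest apart, with a mean signal 3.41 times as high in Dap12-deficient as in wild-type cultures and no overlap between the groups. The brightest probe sets of both receptors, of both SMAD genes, of Skil, of Tgfbi and of both ligands overlapped between the groups. At an unadjusted p under 0.05 there were 5 member probe sets (22.7% of 22), 4 higher and 1 lower, against 10.7% of all tested probe sets (7.05% higher and 3.61% lower). These 5 belong to 3 genes, Thbs1, Tgfbr1 and Tgfbi, and probe sets of the same gene are not independent of each other. Taking each gene by its brightest probe set, 1 of 9 genes had such a p, where the share over all 12875 genes was 9.63%. Arrays did not overlap between the groups for 5 of the 22 probe sets (22.7%), 4 higher and 1 lower, against 16.5% of all tested probe sets (9.6% higher and 6.89% lower). The median log2 difference of the 22 was 0.07, beside 0.03 over all tested probe sets.

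**Figure D1:**
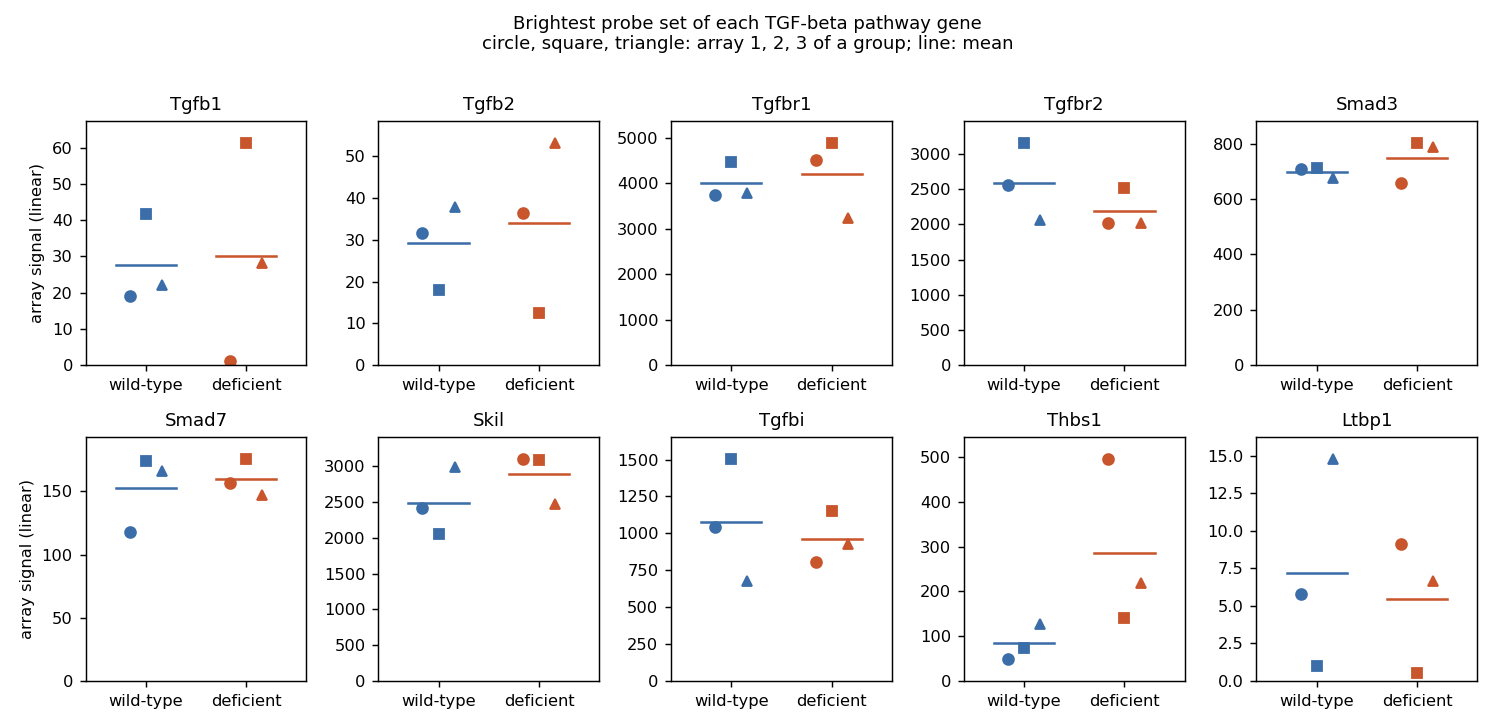
Linear array signal of the brightest probe set of each of the 10 genes in 3 wild-type (blue) and 3 Dap12-deficient (orange) cultures, with circle, square and triangle for arrays 1, 2 and 3 of a group and a line at the mean. Only for Thbs1 do all Dap12-deficient arrays (141 to 495) lie above all wild-type arrays (48.6 to 128).

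The ligand genes gave dim signals with wide spread. Tgfb1, the main TGF-beta isoform of immune cells, gave 19.2, 41.8 and 22.1 on the wild-type arrays and 1.15, 61.2 and 28.2 on the Dap12-deficient arrays with its brightest probe set, 1420653_at. The Dap12-deficient arrays held both the lowest and the highest of these 6 values, and the log2 difference was -0.14 (SE 0.45, 95% interval -1.13 to 0.86). The other Tgfb1 probe set, 1445360_at, was not low on Dap12-deficient array 1. It gave 15.7, 23.0 and 16.1 in wild-type cultures against 27.9, 25.2 and 26.6 in the Dap12-deficient ones, a log2 difference of 0.32 (SE 0.18, adjusted p = 0.566). Here the 3 Dap12-deficient arrays lay just above all wild-type arrays, so the probe sets of Tgfb1 disagree in sign and neither passed. Leaving out Dap12-deficient replicate 1 turned the difference of the brightest probe set to 0.45.

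Tgfb2, an isoform made by astrocytes and neurons among other cells, had 4 probe sets, of which 3 were tested. The brightest, 1450923_at, gave 31.7, 18.0 and 37.8 in wild-type cultures against 36.5, 12.4 and 53.1 in the Dap12-deficient ones. The groups overlapped, and the log2 difference was 0.08 (SE 0.32, 95% interval -0.62 to 0.78). With this probe set Tgfb2 was lowest on wild-type array 2 and Dap12-deficient array 2, the arrays on which the summed astrocyte markers were also lowest within each group (338 and 336), and highest on Dap12-deficient array 3, where these markers were highest (1282). Probe set 1450922_a_at went the other way in wild-type cultures, where array 2 was the highest (12.8, 21.2 and 12.5). The part of astrocytes in the Tgfb2 signal was not tested. The other tested probe sets had log2 differences of 0.27 and 0.04, and 1438303_at was too dim for the test, at 0.484 to 7.60.

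Ltbp1, which encodes a latent TGF-beta binding protein, was dim on every array. Its 3 probe sets gave 0.526 to 14.8, 0.253 to 3.68 and 0.424 to 1.53 over the 6 arrays, and all 3 means lay under the signal needed for the test. Its brightest probe set, 1448870_at, was at 5.80, 0.992 and 14.8 in wild-type cultures against 9.16, 0.526 and 6.66 in the Dap12-deficient ones. These groups overlapped. In the dimmest probe set, 1419786_at, the Dap12-deficient arrays (1.07 to 1.53) lay above the wild-type arrays (0.424 to 0.761), at signals too low to be tested. No detection calls were used here, so whether RNA of Ltbp1, or of the dim Tgfb1 and Tgfb2 described above, was present on each array is not known.

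The receptor genes were bright, and their brightest probe sets differed by less than the spread between cultures. Tgfbr1, the type I receptor kinase, gave 3750.1, 4469 and 3780.0 in wild-type cultures against 4511, 4881 and 3241 in the Dap12-deficient ones with probe set 1420895_at. The highest and the lowest of these values were both Dap12-deficient, and the log2 difference was 0.06 (SE 0.19, 95% interval -0.37 to 0.49). Dimmer probe sets of Tgfbr1 pointed higher. Probe set 1420894_at gave 37.0, 23.3 and 33.0 against 98.0, 57.8 and 31.9, a log2 difference of 0.66 (SE 0.29, adjusted p = 0.463). Dap12-deficient array 3 lay within the wild-type range there. Probe set 1420893_a_at gave 17.4, 9.04 and 19.7 against 31.7, 30.4 and 22.0, with no overlap, a log2 difference of 0.50 (SE 0.21, adjusted p = 0.438). The probe sets of Tgfbr1 thus differ in the size of the difference, and where each lies on the transcript was not used here.

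Tgfbr2, the type II receptor that binds the ligand, gave 2561, 3151 and 2069 in wild-type cultures against 2015, 2519.8 and 2019 in the Dap12-deficient ones with probe set 1426397_at. Wild-type array 3 lay among the Dap12-deficient values. The log2 difference was -0.23 (SE 0.20, 95% interval -0.68 to 0.21), and the wild-type mean was 1.19 times the Dap12-deficient mean. The log2 difference was -0.083 without wild-type replicate 2 and -0.38 without wild-type replicate 3. A dimmer probe set, 1425444_a_at, had -0.60 (SE 0.28, adjusted p = 0.490) with 27.8, 45.4 and 16.4 against 9.99, 25.0 and 7.63, which overlapped as well. The remaining probe set, 1422019_at, was too dim for the test, at 0.115 to 7.02.

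Smad3 varied least of the brightest probe sets over the 6 arrays. Smad3, the receptor-activated transcription factor of the pathway, gave 708, 715 and 678 in wild-type cultures against 659, 802 and 789 in the Dap12-deficient ones, so that the highest array was 1.22 times the lowest. The wild-type values lay between the Dap12-deficient ones. The log2 difference was 0.09 (SE 0.18, 95% interval -0.30 to 0.49). A dimmer probe set, 1450472_s_at, had non-overlapping but close values, 23.4 to 25.1 in wild-type and 18.8 to 22.4 in Dap12-deficient cultures (log2 difference -0.15, SE 0.17, adjusted p = 0.789). The probe sets of Smad3 therefore differ in sign, with intervals that both include 0, and a last probe set, 1450471_at, was too dim for the test.

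Feedback inhibitors among the 10 showed overlapping groups. Smad7, the inhibitory SMAD that blocks the type I receptor, gave 118, 174 and 166 in wild-type cultures against 156, 175 and 147 in the Dap12-deficient ones. The log2 difference was 0.07 (SE 0.21, 95% interval -0.38 to 0.53), with the lowest value on wild-type array 1. The other Smad7 probe set, 1443771_x_at, gave a difference whose 95% interval ran from -0.61 to 0.60. Skil, which encodes SnoN, a repressor of SMAD-driven transcription, gave 2409, 2058 and 2994 in wild-type cultures against 3094, 3091 and 2470.0 in the Dap12-deficient ones. Dap12-deficient array 3 lay within the wild-type range, and the log2 difference was 0.22 (SE 0.19, 95% interval -0.21 to 0.65). Its other probe set, 1422054_a_at, had 0.45 (SE 0.22, adjusted p = 0.509) with 138, 96.6 and 83.8 against 122, 161 and 165, which overlapped through wild-type array 1.

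Tgfbi, a matrix protein induced by TGF-beta and made by macrophages among other cells, was measured by 4 bright probe sets. All 4 were lower on average in Dap12-deficient cultures, and none passed. The brightest over all 6 arrays, 1456250_x_at, gave 1046, 1501 and 676 in wild-type cultures against 806, 1148 and 928 in the Dap12-deficient ones, a log2 difference of -0.10 (SE 0.28, 95% interval -0.71 to 0.51). Wild-type arrays held both extremes. Probe set 1448123_s_at gave 1229, 1394 and 863 against 715, 931 and 691, a log2 difference of -0.55 (SE 0.22, adjusted p = 0.428). Its groups overlapped through wild-type array 3 and Dap12-deficient array 2. Probe set 1415871_at had -0.49 (SE 0.25) and 1437463_x_at -0.10 (SE 0.23). On each of the 4 probe sets wild-type array 2 was the highest of all arrays.

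**Figure D2:**
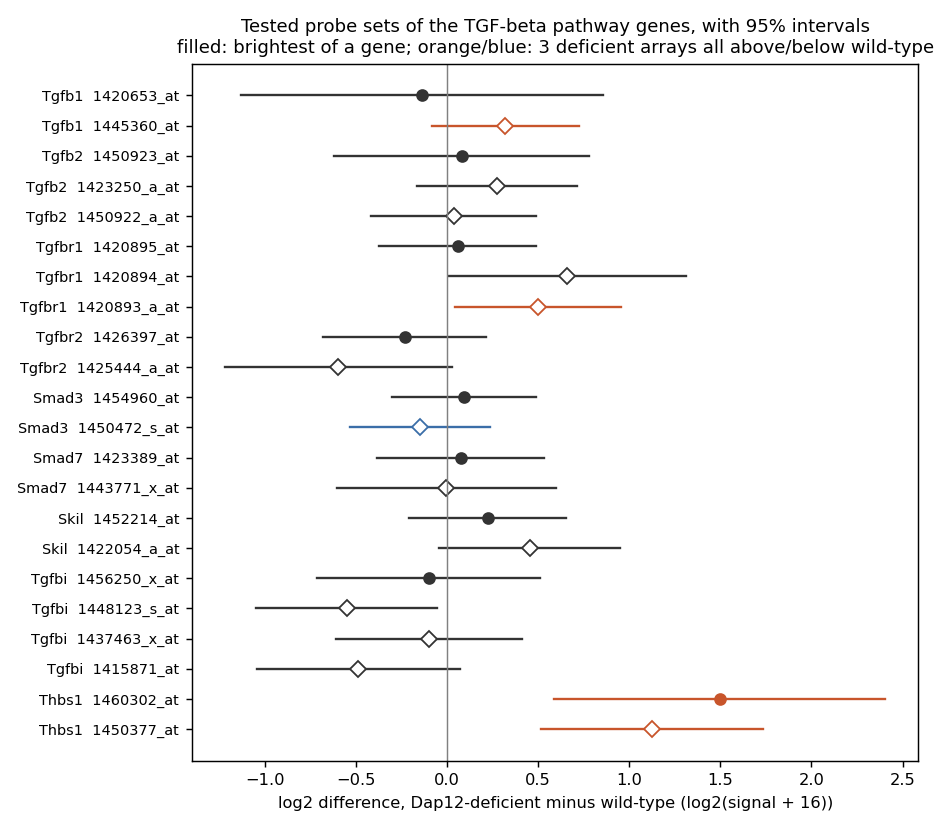
Log2 difference, Dap12-deficient minus wild-type, of the 22 tested probe sets, with limma's 95% interval (not adjusted for the number of probe sets). Filled points mark the brightest probe set of a gene, orange and blue those whose 3 Dap12-deficient arrays lie all above or all below wild-type, and only the probe sets of Thbs1 exceed a difference of 1.

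Thbs1 gave the largest differences of the 10 genes on both of its probe sets. It encodes thrombospondin 1, a secreted matrix protein of astrocytes, macrophages and platelets that can activate latent TGF-beta and whose gene is itself a TGF-beta target. Probe set 1460302_at gave 48.6, 74.2 and 128 in wild-type cultures against 495, 141 and 218 in the Dap12-deficient ones. The groups did not overlap, although Dap12-deficient array 2 lay close to wild-type array 3, and array 1 lay far above the others. Mean signals were 83.6 ± 40.5 (SD, n = 3) and 285 ± 186 (SD, n = 3). The log2 difference was 1.50 (SE 0.41, 95% interval 0.59 to 2.41, limma adjusted p = 0.335). The dimmer probe set 1450377_at gave 9.99, 20.3 and 19.7 against 76.7, 30.2 and 65.6, again with no overlap and with Dap12-deficient array 2 the lowest of its group. Its means were 16.7 ± 5.78 and 57.5 ± 24.3 (SD, n = 3 each), 3.45 times as high, and its log2 difference was 1.13 (SE 0.27, 95% interval 0.52 to 1.73, limma adjusted p = 0.293). Arrays lay all above wild-type for 9.6% of all tested probe sets.

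Leaving out Dap12-deficient array 2 ended with 1 Thbs1 probe set past the threshold. Without that array, probe set 1450377_at passed (log2 difference 1.43, limma adjusted p = 0.0302), while 1460302_at had 1.88 (adjusted p = 0.0657). In that fit 172 probe sets passed over the whole array, 156 of them higher. With a term for the Y-linked signal, the difference of 1460302_at was 0.07 (SE 1.12) and that of 1450377_at 0.92 (SE 0.82). This term was 5.31 to 6.19 on Dap12-deficient and 7.10 to 7.36 on wild-type arrays, without overlap. The fit therefore cannot tell it apart from genotype. With a term for myelin genes, 1460302_at had 2.26 (SE 0.48, adjusted p = 0.191) and 1450377_at 1.27 (SE 0.39, adjusted p = 0.231). Among the Dap12-deficient arrays, Thbs1 was highest on array 1 with 1460302_at and the summed astrocyte markers on array 3 (1282). Both were lowest on array 2 (141 and 336). In wild-type cultures Thbs1 was lowest on array 1, where these markers were highest (543). The summed fibroblast and meningeal markers overlapped between the groups, since Dap12-deficient array 2 (97.4) lay within the wild-type range of 69.9 to 108 while arrays 1 and 3 (128 and 170.3) lay above it, and among them Lum was under the signal needed for the test. Of the 5 tested fibroblast and meningeal genes 5 were higher in Dap12-deficient cultures, as were 6 of 6 astrocyte genes, where 54.8% of all tested genes were lower. With a common median 5 astrocyte genes were higher and 1 lower. Arrays did not overlap for 1 of the 5 (20%) and 2 of the 6 (33.3%), against 16.4% of all tested genes. The part of astrocytes, fibroblasts and meningeal cells in the Thbs1 difference was not tested.

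**Figure D3:**
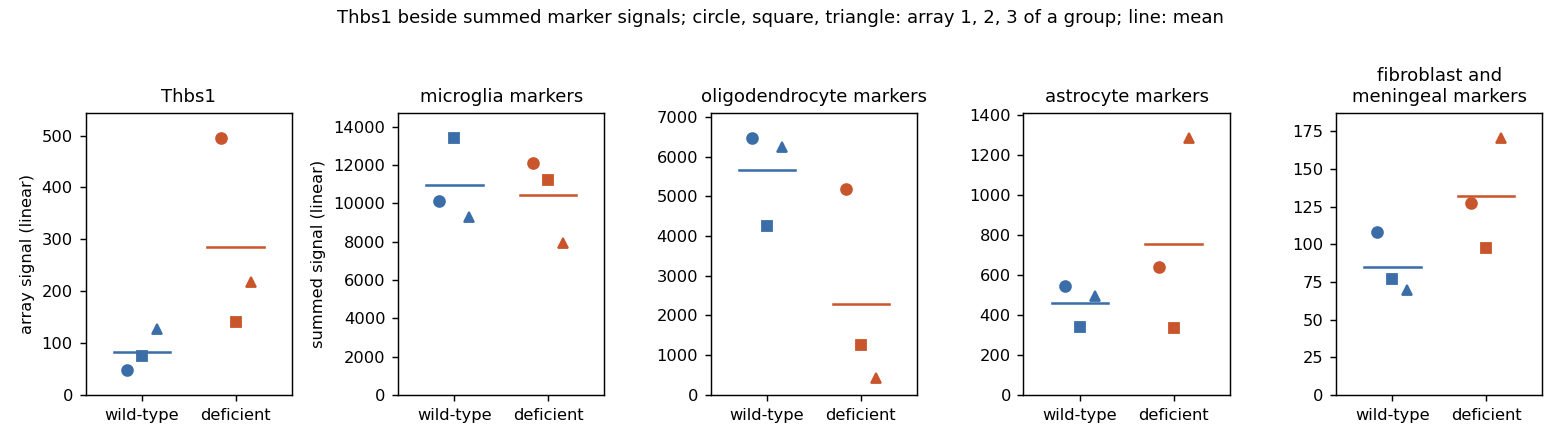
Linear signal of Thbs1 (probe set 1460302_at) beside the summed linear signals of marker genes of 4 cell types, by group, with circle, square and triangle for arrays 1, 2 and 3 and a line at the mean. Among the Dap12-deficient arrays, Thbs1 is highest on array 1 (495) and astrocyte markers on array 3 (1282), and both are lowest on array 2 (141 and 336).

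Other genes of the pathway were followed in 7 lists, from ligand release to target genes. Of 87 listed genes, 81 had a probe set of a single symbol and 71 were tested, each by its brightest probe set. None passed the threshold, where 0.0155% of all 12875 genes did, 36 were higher and 35 lower, and the median log2 difference was 0.02, beside -0.03 over all tested genes. An unadjusted limma p under 0.05 was found for 9 of the 71 (12.7%), 4 higher and 5 lower, against 9.63% of all tested genes (4.76% higher and 4.87% lower). Arrays did not overlap for 13 (18.3%), 6 higher and 7 lower, against 16.4% of all tested genes (7.54% higher and 8.85% lower). These shares are close to those of the array as a whole. All 7 lists were chosen with earlier results of these data known, so their counts are not independent evidence.

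Genes of latency and activation were mostly higher, by small amounts. Of 10 tested, 9 were higher and 1 lower (10%), where 54.8% of all tested genes were lower. Their median log2 difference was 0.25, and 0 had an unadjusted limma p under 0.05. Arrays did not overlap for 2 (20%), 2 higher and 0 lower, against 16.4% of all tested genes. Scaled to a common median, 6 were higher and 4 lower. Mmp14, a membrane metalloprotease that can release TGF-beta from its latent complex, gave 148, 223 and 120.4 in wild-type cultures against 221, 212 and 226 in the Dap12-deficient ones (log2 difference 0.43, SE 0.23). Itgb8, whose integrin activates latent TGF-beta, gave 208, 224 and 349.7 against 310.3, 303 and 438 (0.42, SE 0.24), and Furin, the protease that cleaves the TGF-beta precursor, had 0.41 (SE 0.24). For these 3 genes adjusted p ran from 0.540 to 0.587, and each overlapped between the groups. The other probe sets of Mmp14 had 0.38 and 0.02. Without wild-type replicate 3, Mmp14 had 0.25, Furin 0.16 and Itgb8 0.64.

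Receptors other than Tgfbr1 and Tgfbr2, and the other SMADs, lay on both sides of 0. Of 9 receptors and co-receptors, 4 were higher and 5 lower, with a median of -0.11 (0 and 9 with a common median scaling). Acvr1b, a type I receptor for activin, gave 104, 99.6 and 141 in wild-type cultures against 65.0, 92.3 and 90.4 in the Dap12-deficient ones, without overlap (log2 difference -0.41, SE 0.21, adjusted p = 0.530). Acvr2a, a type II activin receptor, had -0.28 (SE 0.21) and endoglin (Eng), a co-receptor, -0.31 (SE 0.25), with 0.10 and 0.25 on their other tested probe sets. Of 10 SMADs and cofactors, 5 were higher and 5 lower, with a median difference of -0.004 and none past an unadjusted p of 0.05. Their median was 0.01 after quantile normalization, 0.04 after cyclic loess and -0.24 with a common median, where 3 were higher and 7 lower. Smad4, the common partner of the receptor-activated SMADs, had 0.28 (SE 0.20), Trim33, a ubiquitin ligase that binds SMADs, 0.33 (SE 0.19), and the coactivator Ep300 0.43 (SE 0.26). Ep300 was high on Dap12-deficient array 1 alone, at 783 beside 400.1 and 434 on the other Dap12-deficient arrays and 342 to 403 in wild-type.

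Inhibitors and feedback regulators held the lowest value among the lists. Of 11 tested, 3 were higher and 8 lower (4 and 7 after quantile normalization or cyclic loess, and 2 and 9 with a common median), with a median of -0.17, and arrays did not overlap for 4 (36.4%), 2 higher and 2 lower, against 16.4% of all tested genes. An unadjusted limma p under 0.05 was found for 3 (27.3%), against 9.63%. Bambi, a pseudoreceptor that blocks TGF-beta signalling, gave 454, 592 and 351 in wild-type cultures against 163, 212 and 210.3 in the Dap12-deficient ones. Every Dap12-deficient array lay well below every wild-type array, with means of 466 ± 121 and 195 ± 27.7 (SD, n = 3 each). The log2 difference was -1.17 (SE 0.23, 95% interval -1.68 to -0.66, limma adjusted p = 0.266). Tgif1, a homeobox corepressor of SMAD-driven genes, gave 60.4, 459 and 298 against 664, 491 and 661, without overlap but with a wide wild-type spread (1.45, SE 0.53, adjusted p = 0.385). Without wild-type replicate 1, its difference was 0.67. Tgif2, a related corepressor, gave 47.8, 50.2 and 27.4 against 59.3, 74.5 and 84.7 (log2 difference 0.63, SE 0.23, adjusted p = 0.374). Bambi and the TGIF genes thus lay on opposite sides of wild-type.

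**Figure D4:**
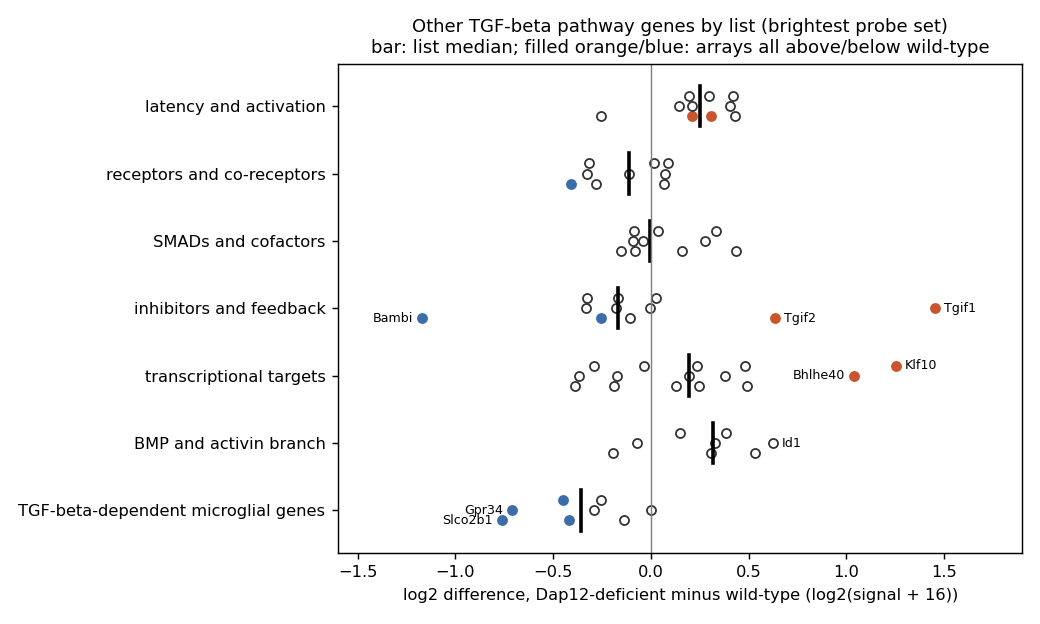
Log2 difference, Dap12-deficient minus wild-type, of the 71 other pathway genes tested (1 point per gene, brightest probe set), by list, with a black bar at each list's median. Filled points are genes whose arrays do not overlap between the groups, and Tgif1 (1.45) and Bambi (-1.17) mark the ends of the range.

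Among transcriptional targets, Klf10 and Bhlhe40 had the largest log2 differences of their list. Of 15 tested, 9 were higher and 6 lower, with a median log2 difference of 0.19. Klf10, the TGF-beta-inducible early gene that encodes a zinc finger repressor, gave 135, 177 and 193 in wild-type cultures against 442, 322 and 515 in the Dap12-deficient ones. Bhlhe40, a helix-loop-helix repressor induced by TGF-beta among other signals, gave 970.1, 769 and 812 against 1986, 1643 and 1657. In both genes all Dap12-deficient arrays were clearly above all wild-type arrays. The log2 differences were 1.25 (SE 0.23, adjusted p = 0.221) for Klf10 and 1.04 (SE 0.18, adjusted p = 0.197) for Bhlhe40. Klf10 passed without Dap12-deficient replicate 2 (1.43, limma adjusted p = 0.0318). The next gene by p, the fibrillar collagen gene Col3a1, which is also a fibroblast marker, had 0.49 (SE 0.24) with overlapping groups. Among the 6 lower targets, Junb (-0.37, SE 0.49) was low on Dap12-deficient array 1 alone. It gave 237, 217 and 243 in wild-type cultures against 52.5, 291 and 321 in the Dap12-deficient ones. Dap12-deficient arrays 2 and 3 thus lay above all wild-type arrays. Klf10 and Bhlhe40 were the targets with an unadjusted limma p under 0.05, 2 of 15 or 13.3%, against 9.63% of all tested genes. This list was chosen with earlier results of these data known, so the separation of Klf10 and Bhlhe40 is not independent evidence.

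The BMP and activin branch, which shares some SMADs with TGF-beta, had 6 of 8 tested genes higher and 2 lower. Their median was 0.32, and 0 had an unadjusted limma p under 0.05. Id1, a classical BMP target, gave 207, 108 and 137 in wild-type cultures against 159, 205 and 383 in the Dap12-deficient ones (log2 difference 0.62, SE 0.32, adjusted p = 0.523). Id2 had 0.31 (SE 0.22) and the ligand Bmp2 0.33 (SE 0.25), and in all 3 genes the groups overlapped. Id1 was highest on Dap12-deficient array 3, as were the astrocyte markers, and their part in the Id1 signal was not tested. Other probe sets of Id2 had -0.09 and 0.20. Leaving out 1 array took Id1 to 0.28 (Dap12-deficient replicate 3), Id2 to 0.094 (Dap12-deficient replicate 2) and Bmp2 to 0.099 (wild-type replicate 2).

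Microglial genes known to depend on TGF-beta had log2 differences from -0.76 to -0.002, and none of the 8 tested passed the threshold. Their median was -0.36, and 8 of 8 lay below 0, where 54.8% of all tested genes were lower. After quantile normalization or cyclic loess 7 were lower and 1 higher. An unadjusted limma p under 0.05 was found for 4 (50%), all lower, against 4.87% of all tested genes in that direction. Arrays lay all below wild-type for 4 (50%), against 8.85% of all tested genes. The list was chosen with earlier results of these data known, so its direction is not independent evidence. Slco2b1, an organic anion transporter, gave 666, 825 and 589 in wild-type cultures against 335, 479.6 and 391 in the Dap12-deficient ones (log2 difference -0.76, SE 0.21, adjusted p = 0.335). A second tested probe set of Slco2b1 had -0.70 (SE 0.23), also without overlap. Gpr34, a lysophosphatidylserine receptor, gave 486, 439.9 and 591 against 393, 235 and 294 (-0.71, SE 0.23, adjusted p = 0.350). Sall1, a transcription factor of microglial identity, gave 93.3, 106 and 106 against 63.5, 70.7 and 82.6 (-0.42, SE 0.19, adjusted p = 0.466). Olfml3, which encodes a secreted glycoprotein, gave 1203, 1635 and 1262 against 983, 1160.1 and 847 (-0.45, SE 0.20, adjusted p = 0.468). In Slco2b1, Gpr34, Sall1 and Olfml3 alike the Dap12-deficient arrays lay all below the wild-type arrays. P2ry12, Tmem119, Fcrls and Mertk overlapped between the groups, with log2 differences of -0.29, -0.26, -0.14 and -0.002 in that order. P2ry12 is also among the microglial markers. General microglial markers lay mostly on the same side, with 4 of 5 lower and a median log2 difference of -0.29. Among them Aif1, a calcium-binding protein of macrophages, had -0.36 (SE 0.21), the integrin gene Itgam -0.35 (SE 0.24), the receptor gene Csf1r -0.05 (SE 0.22) and the chemokine receptor gene Cx3cr1 0.72 (SE 0.56). None of these 5 had an unadjusted limma p under 0.05, each overlapped between the groups, and their part in the differences of the list was not tested.

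**Figure D5:**
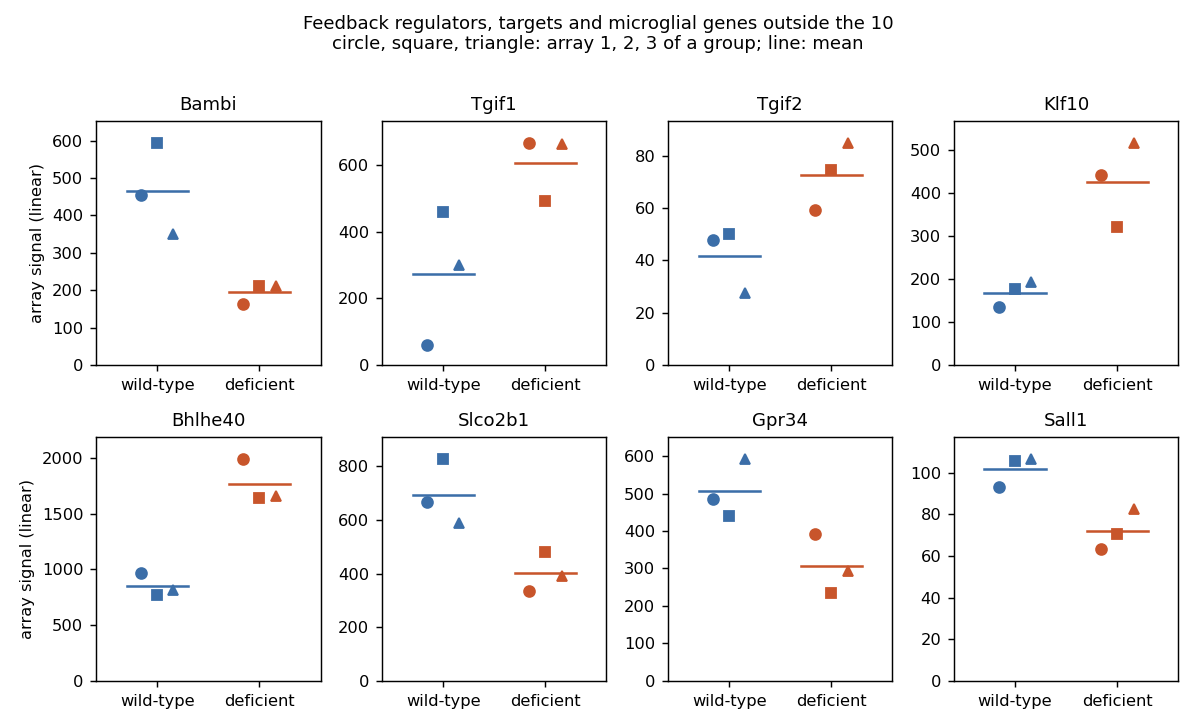
Linear array signal of 8 pathway genes outside the 10, by group, with circle, square and triangle for arrays 1, 2 and 3 and a line at the mean. In each of the 8 genes the 3 Dap12-deficient arrays lie all on the same side of the 3 wild-type arrays, lower for Bambi, Slco2b1, Gpr34 and Sall1 and higher for Tgif1, Tgif2, Klf10 and Bhlhe40. The 8 were taken from the 13 of 71 tested pathway genes (18.3%) whose arrays do not overlap, against 16.4% of all tested genes.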

How the data were processed

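Per the labels' protocols, total RNA was prepared by Trizol and RNeasy, and an Affymetrix kit of 2 cycles gave the biotin label. The authors deposited a linear signal intensity per probe set, and GCOS is named in the submitters' processing notes. No version or setting of it is stated in the labels or file headers. Precision is limited by the number of arrays. Replicates were numbered by order of deposit.

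The arrays hold 45101 probe sets, and 64 of them, the controls, were dropped. Among the rest 34945 had 1 gene symbol, 932 several and 9160 none. Probe sets with a mean signal at or above the 40th percentile (8.51) were tested with limma 3.58.1 in R 4.3.3 (lmFit, eBayes with intensity trend, Benjamini-Hochberg over 27022 probe sets) on log2(signal + 16), with no covariate. The text names all 10 genes and the 3 genes with the smallest p of each list. Junb, Mbp, the remaining microglial genes of the last list and the general microglial markers were named after their values were seen. The members and lists were chosen with earlier results of these data known. Alternatives were other scalings, pseudocounts and filters, array weights, other eBayes settings, other summaries per gene, terms for Y-linked or myelin genes, and leaving out each array. The steps were tested on simulated data. Lrrc32, Fbn1, Ctgf, Cyr61 and Gdf15, among others, matched no probe set by the symbol rule and were not analysed here. Python 3.11.15 with matplotlib 3.10.9 drew the plots.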

Additional observations from a re-analysis of the deposited data

How the results depend on the processing

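For the 43 probe sets followed, 798 of 849 values under the alternatives kept their direction and their side of the threshold, 49 had the opposite direction, and 2 passed, both without Dap12-deficient replicate 2 (Thbs1 probe set 1450377_at and Klf10, each 1.43). The count of all probe sets past the threshold, 2 as reported, was 3 with eBayes without an intensity trend. It was 4 with array weights, 4 with 1 probe set per gene and 5 with a common median. The myelin term gave 5 and the sex term 11. Leaving out 1 array gave 2 to 172 (15 without Dap12-deficient replicate 1, 172 without replicate 2). The count of member probe sets past the threshold was 0 to 1 when 1 array was left out. The causes were not tested.

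With a common median, which moved the median of all genes from -0.03 to -0.23, log2 differences turned to -0.095 for Tgfb2, -0.20 for Tgfbr1, -0.16 for Smad3, -0.16 for Smad7, -0.031 for Skil and -0.082 for Tgfb2 probe set 1450922_a_at. That Tgfb2 probe set had -0.085 after quantile normalization, -0.073 after cyclic loess and -0.22 with the myelin term, and Smad3 had -0.067 with the myelin term. Array weights gave 0.18 for Tgfb1 and -0.049 for Tgfb2, the mean of all probe sets gave 0.091 for Tgfb1, and cyclic loess gave 0.031 for Smad7 probe set 1443771_x_at. The sex term gave 2.46 for Tgfb1, -0.50 for Tgfbr1, -0.18 for Skil, 0.22 for Tgfbi, -1.36 and -0.040 for Tgfbr1 probe sets 1420894_at and 1420893_a_at, 1.14 for Smad7 probe set 1443771_x_at and 0.85 for Tgfbi probe set 1437463_x_at. Among other pathway genes it gave 0.61 for Eng, 0.33 for Acvr1b, 0.66 for Acvr2a, -0.41 for Smad4, -0.80 for Ep300, -0.11 for Id2, -0.65 for Bmp2 and 0.13 for Sall1. The sex term, which is the Y-linked signal, did not overlap between the groups, so these fits cannot tell it apart from genotype.

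Leaving out 1 array gave -0.63 to 0.45 for Tgfb1, -0.20 to 0.44 for Tgfb2, -0.060 to 0.23 for Tgfbr1, -0.085 to 0.17 for Smad7 and -0.39 to 0.17 for Tgfbi. It gave -0.099 to 0.16 for Tgfb2 probe set 1450922_a_at, -0.27 to 0.16 for Smad7 probe set 1443771_x_at, -0.25 to 0.064 for Tgfbi probe set 1437463_x_at, 0.93 to 1.43 for Thbs1 probe set 1450377_at and 1.11 to 1.43 for Klf10. Without changing sign it gave -0.38 to -0.083 for Tgfbr2, 0.042 to 0.18 for Smad3, 0.095 to 0.36 for Skil, -0.51 to -0.052 for Eng, -0.45 to -0.17 for Acvr2a, 0.13 to 0.37 for Smad4 and 0.14 to 0.61 for Ep300. A term for 1 or 2 numbers in a sample's title, balanced between the groups, left every log2 difference as reported and the counts at 2 and 0. The adjusted p of Thbs1 probe set 1460302_at lay between 0.0657 and 0.992 over its alternatives. No paired analysis was possible because the labels give no replicate numbers shared between the groups. With 3 arrays per group an exact permutation test of 1 value cannot go below 0.1.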
